A study of Mus musculus with 4 samples.

Results

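T-box genes encode transcription factors that share a DNA-binding domain, the T-box, and that direct the patterning of the heart and other organs. Here, 7 of them were followed through the open chromatin of adult mouse heart nuclei, out of 21755 protein-coding genes in the mm10 (GRCm38) annotation of GENCODE, release M21. The members were given as a list of names (Tbx1, Tbx2, Tbx3, Tbx5, Tbx15, Tbx18 and Tbx20) and not by a cutoff on a measured value. Earlier results of these data were known when the list was made, so the choice was not blind to them. All 7 had a peak at one or more of their transcript starts in endothelial as well as in non-endothelial nuclei. At their starts, Tbx3 and Tbx20 had peaks ranked high in both lists. Start peaks rank high in general, and in endothelial nuclei Tbx20 lay little above the median of genes that have one. Tbx2 and Tbx18 stood lower in the endothelial list than in the non-endothelial one by every measure used. Tbx5 did so at its start peaks, but with a neighbouring GFP+ peak of the same region merged in, its direction depended on the measure. Tbx1 and Tbx15 had small start peaks in both lists.

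T-box factors bind DNA through a short conserved word and act with NKX2-5, GATA and HAND factors to switch heart genes on or off. TBX5, mutated in Holt-Oram syndrome, and TBX20 are factors of the cardiomyocyte. TBX2 and TBX3 repress working-muscle genes in the atrioventricular canal and the conduction system, and TBX18 marks the epicardium, the sinus node and the mural cells of vessels. TBX1, lost in DiGeorge syndrome, acts in the embryonic pharynx and the second heart field, and TBX15 acts in skeletal muscle, fat and skeleton; neither is known as a factor of the adult heart.

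Nuclei came from whole hearts of male NuTRAP/Cdh5-Cre mice on a C57BL/6 background, 8 to 12 weeks old, and both sorted populations carried both alleles and received no treatment. Cre is driven by the promoter of Cdh5, the endothelial cadherin, and switches on the NuTRAP allele, which tags ribosomes with GFP. GFP therefore marks every descendant of a cell in which the driver was once active. GFP+ nuclei are endothelial by this definition, and GFP- nuclei are a mixture of all other heart cells. For each population 2 replicate libraries of 100 to 50000 nuclei were made by ATAC-Seq, in which the Tn5 transposase inserts adapters where DNA is accessible. The authors deposited 1 peak list per population, made by joint calling on its pair of replicates, with 78912 peaks over 52.1 Mb for GFP- nuclei and 65008 peaks over 41.8 Mb for GFP+ nuclei. There are therefore no replicate values, no test between the populations was made, and a difference between the lists has no replicate error; the number of reads behind a peak is unknown. Peaks were ranked by area, the signal added up along the peak, as percentiles of their own list, from near 0 for the smallest to 100 for the largest, and a place with no peak was given rank 0. Differences are GFP+ rank minus GFP- rank, in points.

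The labelled populations were compared with cell type markers by the same measure. Among 8 endothelial markers, 5 had a start peak in the GFP- list and 8 in the GFP+ list, with a median start rank of 33.1 and 76.1, and 7 of the 8 ranked higher in GFP+ (Tek was the exception). All 7 cardiomyocyte markers had a start peak in both lists (median ranks 99.7 and 94.3). Fibroblast markers had a start peak in 5 of 6 genes in GFP- and 2 of 6 in GFP+, and pericyte and smooth muscle markers in 7 of 7 and 4 of 7 (median ranks 79.2 and 49.1). Of the epicardial markers, Upk3b, Msln and Upk1b had no start peak in either list, and Wt1, also known in endothelium, ranked 61.8 in GFP- and 83.0 in GFP+. Of the leukocyte markers, Ptprc, Csf1r and Cd3e had none, and Cd68 ranked 31.8 and 16.8. Of 4 conduction markers, Hcn4, Shox2 and Cacna2d2 had a start peak in both lists and Cntn2 in neither (median ranks 74.8 and 62.0). These markers move with the same contrast as every difference given below, and the part of cell type shares in them was not tested.

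Sequences from start peaks are shown for 6 of the 7 genes because these peaks carry the comparison. They rank high in both lists at Tbx3 and Tbx20, lower in GFP+ by area at Tbx2, Tbx5 and Tbx18, and low in both at Tbx15. Each stretch is 150 bp of the plus strand of GRCm38, 5′ to 3′, and capitals mark matches to the words searched. The Tbx20 stretch (chr9:24774347-24774496), the Tbx18 stretch (chr9:87731281-87731430) and the Tbx5 stretch (chr5:119835458-119835607) are centred on a start peak's summit, the last on that of the GFP+ list. That Tbx5 summit is 622 bp from the nearest start, that of Tbx5-202. The peak comes within 250 bp of this start, but the Tbx5 stretch shown does not. The Tbx3 stretch (chr5:119670519-119670668) lies directly before the start of transcript Tbx3-202, the Tbx2 stretch (chr11:85832401-85832550) before that of Tbx2-201, and the Tbx15 stretch (chr3:99253610-99253759) before that of Tbx15-201.
Tbx3 start: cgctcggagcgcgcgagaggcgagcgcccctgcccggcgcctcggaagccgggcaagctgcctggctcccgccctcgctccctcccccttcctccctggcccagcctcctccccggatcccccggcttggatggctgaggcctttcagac
Tbx20 start: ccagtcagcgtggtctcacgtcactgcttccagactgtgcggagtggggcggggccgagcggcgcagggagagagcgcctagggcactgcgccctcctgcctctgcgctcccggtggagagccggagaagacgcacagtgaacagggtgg
Tbx18 start: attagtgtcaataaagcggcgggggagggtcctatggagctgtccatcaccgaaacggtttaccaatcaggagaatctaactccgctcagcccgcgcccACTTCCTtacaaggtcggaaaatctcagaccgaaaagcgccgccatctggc
Tbx2 start: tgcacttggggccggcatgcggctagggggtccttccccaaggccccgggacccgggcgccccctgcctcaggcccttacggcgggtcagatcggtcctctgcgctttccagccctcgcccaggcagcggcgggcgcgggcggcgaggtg
Tbx5 start: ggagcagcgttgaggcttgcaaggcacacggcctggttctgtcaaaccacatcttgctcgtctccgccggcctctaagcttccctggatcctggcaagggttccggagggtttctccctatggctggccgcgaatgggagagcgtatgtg
Tbx15 start: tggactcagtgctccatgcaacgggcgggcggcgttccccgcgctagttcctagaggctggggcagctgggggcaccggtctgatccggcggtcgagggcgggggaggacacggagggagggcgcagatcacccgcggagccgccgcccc

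Stretches away from the starts are shown as examples of peaks found in the GFP- list alone and of peaks that both lists hold. The first 3 come from peaks found only in the GFP- list, upstream of Tbx20 (chr9:24781179-24781328), Tbx18 (chr9:87740735-87740884) and Tbx2 (chr11:85830077-85830226). The other 4 come from peaks of both lists, upstream of Tbx1 (chr16:18604563-18604712), upstream of Tbx3 (chr5:119575204-119575353), in an intron of Tbx5 (chr5:119877390-119877539) and downstream of Tbx2 (chr11:85844251-85844400), all centred on the GFP- summit.
Tbx20 upstream, GFP- only: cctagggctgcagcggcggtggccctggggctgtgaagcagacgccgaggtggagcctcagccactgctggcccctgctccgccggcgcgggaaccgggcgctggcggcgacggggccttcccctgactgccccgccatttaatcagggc
Tbx18 upstream, GFP- only: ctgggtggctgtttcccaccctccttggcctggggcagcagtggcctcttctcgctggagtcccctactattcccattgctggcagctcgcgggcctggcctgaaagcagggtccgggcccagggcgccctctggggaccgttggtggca
Tbx2 upstream, GFP- only: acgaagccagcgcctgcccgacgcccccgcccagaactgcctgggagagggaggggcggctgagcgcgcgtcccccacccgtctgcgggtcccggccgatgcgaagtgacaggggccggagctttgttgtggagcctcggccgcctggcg
Tbx1 upstream, both lists: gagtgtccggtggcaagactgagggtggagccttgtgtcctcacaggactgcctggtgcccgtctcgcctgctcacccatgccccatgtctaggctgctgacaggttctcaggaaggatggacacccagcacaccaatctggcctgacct
Tbx3 upstream, both lists: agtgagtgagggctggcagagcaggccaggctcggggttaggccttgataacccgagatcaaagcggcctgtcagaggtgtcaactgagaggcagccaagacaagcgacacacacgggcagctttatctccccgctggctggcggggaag
Tbx5 intron, both lists: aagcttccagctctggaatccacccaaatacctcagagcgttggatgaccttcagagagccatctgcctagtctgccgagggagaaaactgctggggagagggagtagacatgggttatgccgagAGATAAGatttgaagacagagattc
Tbx2 downstream, both lists: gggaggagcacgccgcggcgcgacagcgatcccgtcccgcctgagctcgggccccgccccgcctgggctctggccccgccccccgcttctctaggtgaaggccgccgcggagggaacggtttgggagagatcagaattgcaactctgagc

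The first question was whether the members' starts were open in both populations. A start counted as open when a peak overlapped the 250 bp on either side of it. All 7 members had such a peak in the GFP- list and all 7 in the GFP+ list, against 61.8% and 59.8% of all protein-coding genes, and 58.8% of genes had one in both. No member had a start peak in 1 list alone, as 2.95% of genes had in GFP- and 0.915% in GFP+. Of the members' 22 distinct transcript starts, 14 (63.6%) had a peak in GFP- and 12 (54.5%) in GFP+, against 51.1% and 49.3% of all starts of protein-coding genes. Starts of one gene can share a peak, so these counts are not of independent starts. The highest start rank was 50 or more in both lists for 5 members (Tbx2, Tbx3, Tbx5, Tbx18 and Tbx20), which holds for 54.0% of all protein-coding genes. That count depended on the measure: ranked by the -log10 p-value of the summit it was 3 members (Tbx3, Tbx18 and Tbx20), and by area per bp it was 2 (Tbx3 and Tbx20). The share of all genes was counted by area alone, so these lower counts have no background beside them. By highest start rank, 6 of the 7 members stood lower in GFP+ than in GFP-, as did 71.4% of the 13643 genes with a start peak in either list. A start more than 10 points lower in GFP+ was seen in 3 members, Tbx2, Tbx5 and Tbx18, against 12.1% of those genes.

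**Figure D1:**
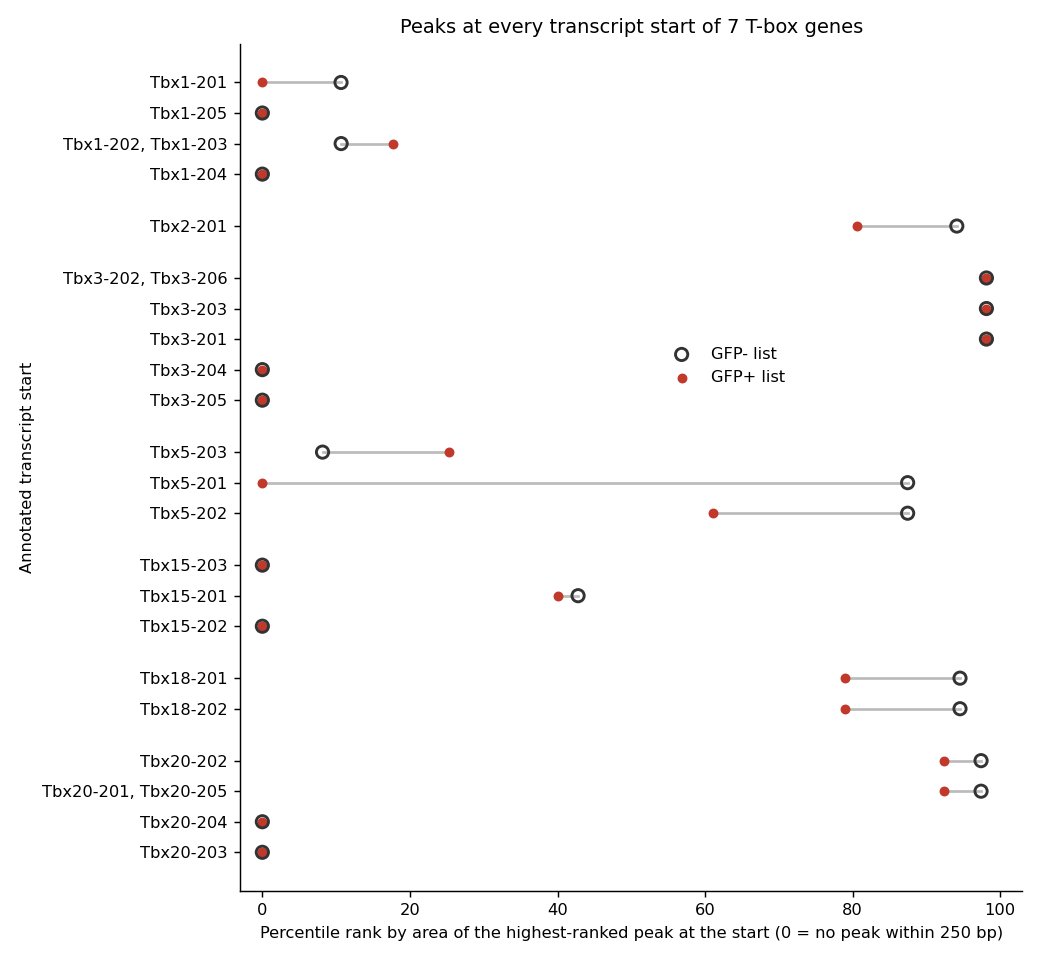
Rank by area (0 to 100, 0 for no peak within 250 bp) of the highest-ranked peak at each of the 22 annotated transcript starts of the 7 T-box genes, with open black circles for the GFP- list and red points for the GFP+ list; starts are grouped by gene and named by their transcripts. The Tbx3 and Tbx20 starts that have a peak lie above 90 in both lists, Tbx2 and Tbx18 keep a peak in both at a lower GFP+ rank, and the Tbx1 and Tbx15 starts lie below 50.

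Among the factors of the cardiomyocyte, Tbx20 had its start peak at rank 97.4 in GFP- (1715 bp long) and 92.4 in GFP+ (1191 bp), a difference of -5.02 points. The peak covers the starts of Tbx20-202, Tbx20-201 and Tbx20-205 at the 5′ end of the gene (chr9:24718138-24774303, minus strand), with summits 119 and 75 bp upstream of the first of them. The internal starts of Tbx20-204 and Tbx20-203 had no peak in either list. At Tbx5 (chr5:119832668-119885219, plus strand) the starts differed from each other. The outermost start, that of Tbx5-203, had a small peak in each list, of rank 8.16 in GFP- and 25.3 in GFP+. The starts of Tbx5-201 and Tbx5-202 lie by a single GFP- peak of 2285 bp at rank 87.4, which corresponds to a pair of separate GFP+ peaks of 1035 bp at rank 61.1 and 671 bp at rank 74.8. Only the first of that pair lies within 250 bp of a Tbx5 start, that of Tbx5-202, so that Tbx5-201 counted as without a peak in GFP+ and the highest start rank of Tbx5 differed by -26.4 points. With the pieces merged, the same region ranked 87.4 in GFP- and 74.8 in GFP+, a difference of -12.7 points.

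Of the factors of other heart lineages, Tbx3 had the highest start rank of the 7 genes in both lists, at 98.1 in GFP- and 98.0 in GFP+ (a difference of -0.120 points). This peak was the 1486th largest of the GFP- list and the 1302nd of the GFP+ list, was 1950 and 2015 bp long, and covers the starts of Tbx3-202, Tbx3-206, Tbx3-203 and Tbx3-201 at the 5′ end of the gene (chr5:119670669-119684724, plus strand). The noncoding transcript Tbx3os1 overlaps the same summit, and ATAC-Seq does not tell which of overlapping genes an open site serves. Tbx2 (chr11:85832551-85841948, plus strand) has a single annotated start, that of Tbx2-201, with a peak of rank 94.1 in GFP- (2317 bp) and 80.6 in GFP+ (1530 bp). Both starts of Tbx18 (chr9:87702800-87731260, minus strand) lie in one peak of rank 94.5 in GFP- (2261 bp) and 78.9 in GFP+ (1869 bp), which D030062O11Rik also overlaps. The differences were -13.5 points for Tbx2 and -15.6 points for Tbx18.

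Tbx15 and Tbx1 were at the other end. Tbx15 (chr3:99240381-99354259, plus strand) had a peak at the start of Tbx15-201 alone, with rank 42.8 in GFP- (650 bp) and 40.0 in GFP+ (647 bp), and none at the starts of Tbx15-203 and Tbx15-202. Tbx1 (chr16:18580979-18590671, minus strand) had a GFP- peak of rank 10.7 at the outermost start, that of Tbx1-201, with no GFP+ peak there. The start of Tbx1-202 and Tbx1-203 had peaks of rank 10.7 in GFP- and 17.7 in GFP+, and the starts of Tbx1-205 and Tbx1-204 had none. Neither gene was without open chromatin at its starts, but both lay far below the median of genes with a start peak, which was 90.5 in GFP- and 89.3 in GFP+. Tbx5 was also below that median in both lists, at 87.4 in GFP- and 61.1 in GFP+. Tbx2 and Tbx18 were below it in GFP+ alone, and Tbx20 was little above it in GFP+. Among all protein-coding genes, Tbx3 lay at percentile 92.9 in GFP- and 93.6 in GFP+, and Tbx20 at 90.2 and 77.3. Tbx18 lay at 80.6 and 54.7, Tbx2 at 79.3 and 56.1, and Tbx5 at 62.5 and 47.0. The order of the 7 genes by start rank was Tbx3, Tbx20, Tbx18, Tbx2, Tbx5, Tbx15 and Tbx1 in GFP-, and it was the same in GFP+ except that Tbx2 stood above Tbx18. No spread over replicates is available to say which neighbours in that order differ.

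Ranks by other measures of the same peaks were set beside the ranks by area. Ranked by the -log10 p-value of the summit, the highest start rank differed by -38.5 points at Tbx2, -34.9 at Tbx5 and -34.0 at Tbx18, and by area per bp it differed by -32.6, -19.7 and -53.3 points. Tbx2 and Tbx18 thus stood lower in GFP+ by all 3 measures. Differences over all genes were counted by area alone, so how unusual the other values are is unknown. The Tbx5 values leave out the GFP+ piece that is not at a start; with the pieces merged, the Tbx5 region differed by -7.07 points by summit p-value and was 32.4 points higher in GFP+ by area per bp, so that its direction depends on the measure. Tbx3 differed by -0.144 points by summit p-value and -3.14 by area per bp, and Tbx20 by -2.99 and -3.90. Tbx1 was higher in GFP+ by area (7.05 points) and lower by summit p-value (-5.24), and Tbx15 was lower by area (-2.76) and higher by summit p-value (8.80), so that no direction can be given for these genes either.

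**Figure D2:**
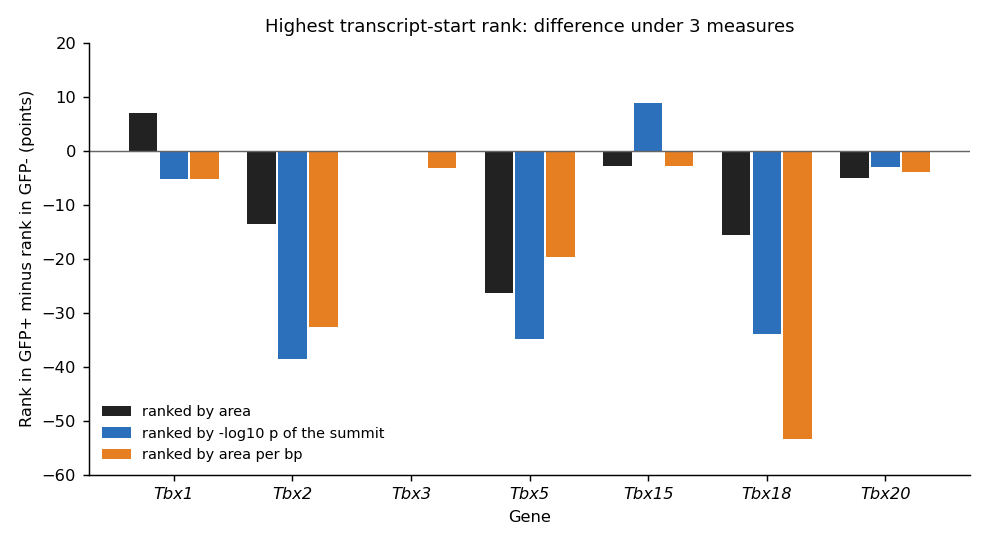
Difference in highest start rank between the lists (GFP+ minus GFP-, in points) for each T-box gene, ranked by area (black bars), by -log10 p of the summit (blue bars) and by area per bp (orange bars). Peaks at starts alone enter, so the Tbx5 bars leave out the second GFP+ piece of its region, whose inclusion changes the sign by area per bp. The bars of Tbx2 and Tbx18 reach -13.5 or lower under all 3 measures, those of Tbx3 and Tbx20 stay between -5.02 and -0.120, and those of Tbx1 and Tbx15 change sign.

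The second question was how much of the chromatin in and around the members was shared. A peak was assigned to the gene whose body holds its summit or, within 100 kb, to the nearest protein-coding gene. This gave the members 52 GFP- peaks (39612 bp) and 41 GFP+ peaks (24641 bp). Of the GFP- peaks, 35 (67.3%, 95% Wilson interval 53.8 to 78.5%) shared 1 bp or more with a GFP+ peak, against 71.0% over all protein-coding genes. Of the GFP+ peaks, 37 (90.2%, 77.5 to 96.1%) overlapped a GFP- peak, against 87.0%. These intervals cover counting error only, and both shares lay close to the background. By place, the GFP- peaks were 9 at starts, 19 in introns, 4 in exons, 14 upstream and 6 downstream, and the GFP+ peaks were 8, 14, 3, 10 and 6. The 17 peaks found only in the GFP- list comprised 7 upstream, 7 intronic, 2 exonic and 1 start peak. All 6 downstream peaks were shared, and they lay at 2 genes alone, 4 at Tbx3 and 2 at Tbx2. Shares by place were not counted over all protein-coding genes, so nothing is read from place here.

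**Figure D3:**
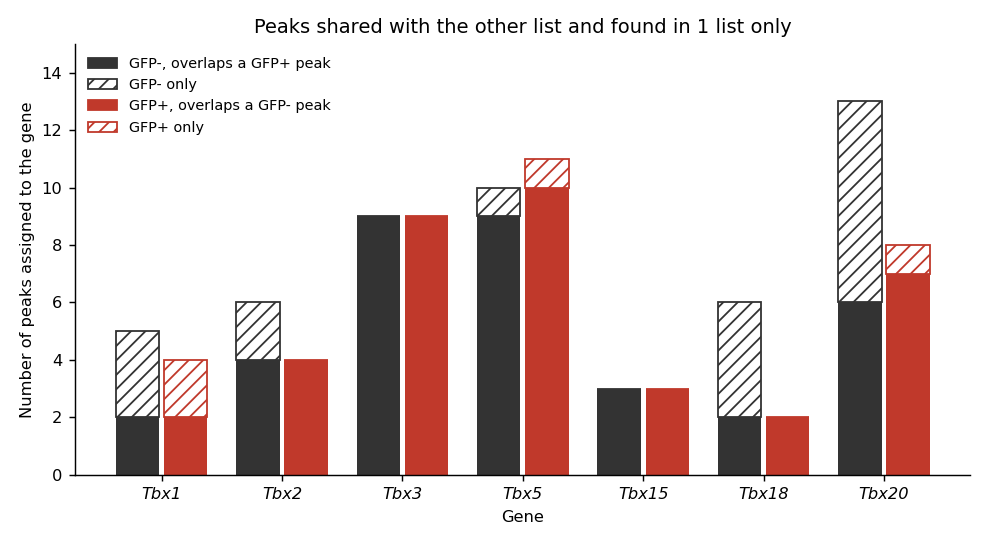
Number of peaks assigned to each T-box gene in the GFP- list (black) and the GFP+ list (red), with filled bars for peaks that overlap a peak of the other list and hatched bars for peaks found in 1 list only. Tbx3 and Tbx15 have filled bars alone, with 9 and 3 peaks in each list, while 7 of 13 GFP- peaks of Tbx20 and 4 of 6 of Tbx18 are hatched.

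The genes differed in this respect. Tbx3 held 9 peaks in each list, all shared, over 5113 and 5080 bp. Tbx15 held 3 in each list, all shared, all of rank under 50. Tbx5 held 10 GFP- peaks, 9 of them shared, and 11 GFP+ peaks, 10 of them shared. At Tbx20, 6 of 13 GFP- peaks and 7 of 8 GFP+ peaks were shared. Tbx18 had 6 GFP- peaks, of which 2 were shared, and 2 GFP+ peaks, both shared. Tbx2 had 6 GFP- peaks, of which 4 were shared, and 4 GFP+ peaks, all shared. At Tbx1 only 2 of 5 GFP- peaks and 2 of 4 GFP+ peaks were shared. Against a median of 2 GFP- peaks and 1 GFP+ peak for a protein-coding gene, the 13 GFP- peaks of Tbx20 lie at percentile 94.7 and the 11 GFP+ peaks of Tbx5 at percentile 95.1.

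Overlapping peaks were merged into regions to compare ranks place by place. The 55 regions of the members comprised 34 found in both lists, 17 in GFP- only and 4 in GFP+ only. The rank was lower in GFP+ at 42 of them (76.4%), against 67.8% of the 79914 regions of all protein-coding genes, and the median difference was -12.7 points against -3.69. In regions of both lists the median difference was -6.27 points against -1.81. By gene, the median was -41.1 points over the 6 regions of Tbx18, -19.8 over the 14 of Tbx20, -13.5 over the 5 of Tbx2, -7.44 over the 11 of Tbx5, -2.76 over the 3 of Tbx15, -1.88 over the 7 of Tbx1 and -0.678 over the 9 of Tbx3. All regions of Tbx2 and Tbx18 ranked lower in GFP+, whereas Tbx3 had 6 lower and 3 higher.

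**Figure D4:**
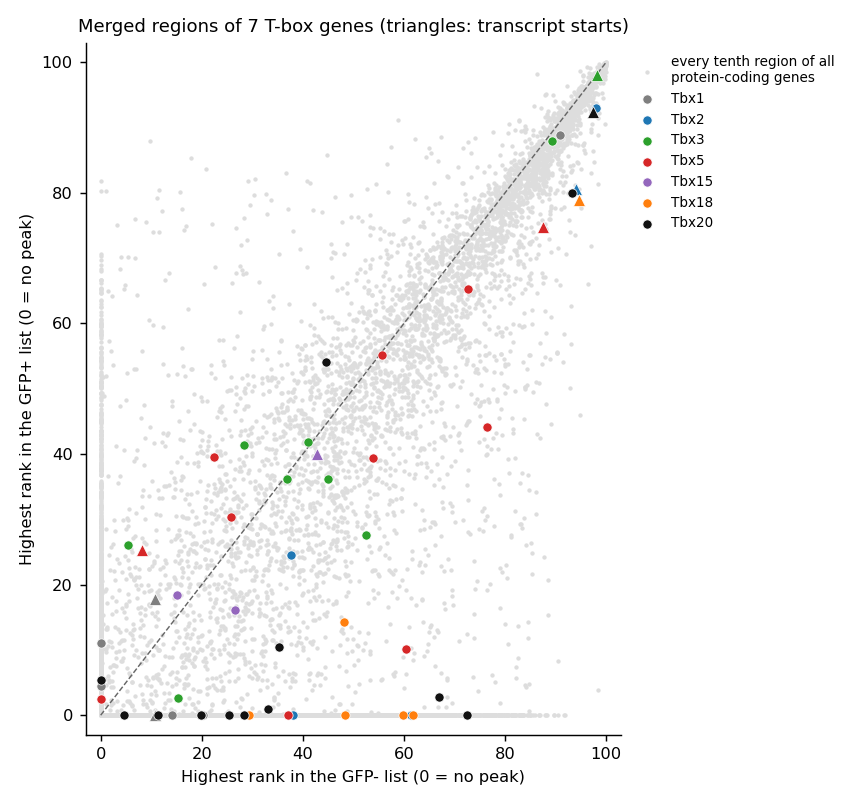
Highest rank of each merged region in the GFP- list (horizontal axis) and in the GFP+ list (vertical axis), with 0 for no peak, for the 7 T-box genes (coloured, triangles for regions at a transcript start) over a sample of regions of all protein-coding genes (light grey); the dashed line marks equal ranks. Of the 55 member regions, 42 lie below the line, and the 17 on the horizontal axis have no GFP+ peak.

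Upstream of Tbx20, 2 places stood out. A GFP- peak of 2506 bp with its summit 3925 bp upstream of the gene had rank 93.3, and in GFP+ the same region held a 1196 bp peak of rank 79.9 and a 456 bp peak of rank 8.37. Farther out, a GFP- peak of 1482 bp (chr9:24780022-24781503, summit 6951 bp upstream) had rank 72.5 and no GFP+ peak, the highest rank of any member peak found in 1 list only. The noncoding gene Gm29824 overlaps both. Within the gene, a peak 3819 bp after the start of the gene had rank 66.9 in GFP- and 2.81 in GFP+, while one in exon sequence at 25410 bp was higher in GFP+, at 54.1 against 44.6. Away from its starts, Tbx5 had its highest GFP- rank in a 1215 bp peak 1160 bp upstream of the gene, at 76.4, where the GFP+ rank was 44.2. An intronic peak 44797 bp into Tbx5 ranked 72.7 and 65.2, and another at 28871 bp ranked 55.6 and 55.1. The intronic region at 7138 bp differed most in Tbx5, with ranks of 60.4 and 10.1.

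Tbx18 had 4 GFP- peaks with no GFP+ counterpart, 3 of them upstream. Their summits lay 1876 bp (rank 59.7, 886 bp long), 8742 bp (rank 48.3) and 9550 bp (rank 61.7, 700 bp long) upstream of the gene. The 1 Tbx18 peak of both lists outside the starts, in an intron 22898 bp into the gene, ranked 48.1 in GFP- and 14.3 in GFP+. Upstream of Tbx2, a GFP- peak of 1113 bp (chr11:85829375-85830487, summit 2399 bp upstream) had rank 61.5 and no GFP+ peak. Downstream of Tbx2, by contrast, a peak with its summit 11775 bp from the start ranked 98.1 in GFP- (2678 bp) and 93.0 in GFP+ (2035 bp), in both lists above the start peak of the same gene. The strongest distal peak of Tbx3, 95390 bp upstream of the gene and within Tbx3os1, ranked 89.2 and 87.9. The regions of Tbx3 that differed most lay 18868 bp upstream, with 52.5 in GFP- and 27.6 in GFP+, and 83289 bp upstream, where the GFP+ rank was higher by 20.6 points.

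Tbx1, with low ranks at its starts, had 1 strong peak in each list, 13967 bp upstream within 4930588K23Rik, at rank 90.8 in GFP- (1526 bp) and 88.9 in GFP+ (993 bp). It was the only Tbx1 peak of rank 50 or more in either list. Outside its start, the highest rank of Tbx15 was 26.6 in GFP- and 18.4 in GFP+, in introns. The 4 peaks found only in the GFP+ list were all of low rank: 4.45 and 11.1 at Tbx1, 2.47 at Tbx5 and 5.45 at Tbx20. Of all GFP+ only peaks of protein-coding genes, 10.7% had rank 50 or more. In the GFP- list, 4 of the 17 peaks found only there had rank 50 or more, at Tbx20, Tbx18 (2 peaks) and Tbx2, a share of 23.5% against 21.5% of all GFP- only peaks of protein-coding genes. Among shared peaks, 48.6% of the members' GFP- peaks and 37.8% of their GFP+ peaks had rank 50 or more, against 62.8% and 56.7% of all shared peaks of protein-coding genes.

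**Figure D5:**
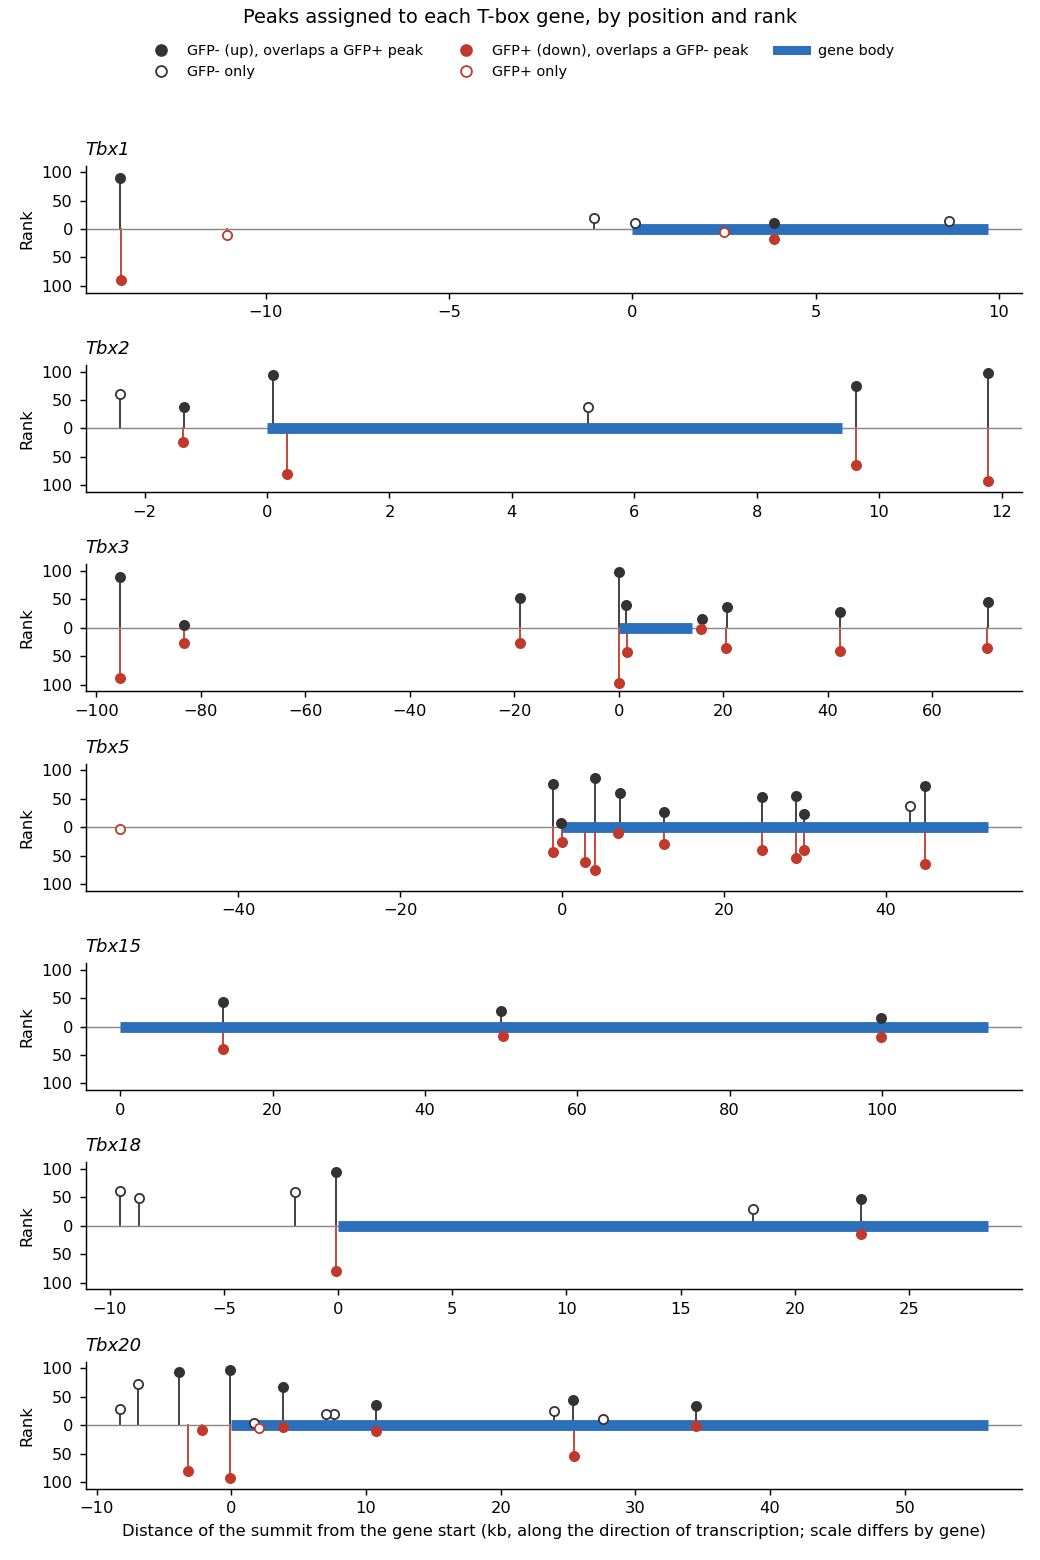
Peaks of each T-box gene by the distance of their summit from the gene start (kb, in the direction of transcription) and by rank, with GFP- peaks drawn upwards in black and GFP+ peaks downwards in red; filled circles overlap a peak of the other list, open circles do not, and blue bars are gene bodies. Open black circles, with no red counterpart, stand upstream of Tbx2, Tbx18 and Tbx20, 4 of them at ranks of 59.7 to 72.5, and the start and distal peaks of Tbx3 are mirrored in both lists.

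Set against known use in the heart, the cardiomyocyte factors Tbx5 and Tbx20 together held 23 GFP- peaks, 15 of them shared, and 19 GFP+ peaks, 17 of them shared. Tbx2, Tbx3 and Tbx18, factors of other heart lineages, held 21 GFP- peaks, 15 of them shared, and 15 GFP+ peaks, all shared. Tbx1 and Tbx15, not known as factors of the adult heart, held 8 GFP- peaks, 5 of them shared, and 7 GFP+ peaks, 5 of them shared. Shared were 65.2%, 71.4% and 62.5% of the GFP- peaks of these groups, in that order, against 71.0% over all protein-coding genes. Of the GFP+ peaks, 89.5%, 100% and 71.4% were shared, against 87.0%. The groups hold few peaks, and these shares do not separate them. In the first of these groups 10 GFP- and 7 GFP+ peaks had rank 50 or more. In the second these counts were 10 and 6, and in the last 1 and 1. Over all protein-coding genes, 62.8% of shared and 21.5% of unshared GFP- peaks had such a rank. For GFP+ peaks these were 56.7% and 10.7%. The median region difference was -13.4 points for the cardiomyocyte factors and -13.3 for the factors of other lineages, and -2.32 for Tbx1 and Tbx15, against -3.69 over all protein-coding genes. The second value pools unlike genes, with medians of -0.678 at Tbx3 and -41.1 at Tbx18. The GFP- peaks of Tbx1 and Tbx15 had a median rank of 17.7, which leaves little room for a lower GFP+ rank. Whether any of these genes was transcribed was not measured in these data.

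The starts also differed in sequence, but several of Tbx3, Tbx18 and Tbx20 share a peak or have overlapping windows, so they are not independent. Within the 500 bp around a start, the 12 starts with a peak in both lists had 48.4 to 80.6% GC (median 64.4%) and a CpG observed-to-expected ratio of 0.454 to 1.06 (median 0.782). The 8 starts with a peak in neither list had 43.2 to 69.0% GC (median 50.6%) and a ratio of 0.203 to 0.639 (median 0.499), so that the ranges overlapped. The start of Tbx3-202 had a ratio of 0.869 and 66.0% GC, against medians of 0.591 and 57.2% for gene starts of all protein-coding genes. A start rich in GC was not always high in rank: the Tbx1-202 start, with 80.6% GC and a ratio of 1.06, ranked 10.7 and 17.7. At summits, GC content in 200 bp had a median of 58.5% in the members' GFP- only peaks, against 50% for all GFP- only peaks of protein-coding genes, and 56.5% in their shared GFP- peaks, against 54.0%.

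Words of 5 factor families were searched on both strands in 200 bp around each summit. The T-box word AGGTGTGA occurred in 0 of 52 GFP- and 0 of 41 GFP+ windows, and in 0.560% and 0.687% of all windows of the lists. The GATA word AGATAAG occurred in 4 GFP- windows (7.69%) and 3 GFP+ windows (7.32%), against 3.16% and 3.26%, and those at Tbx5 lay near its start and in the intron shown above, with the others in Tbx20. The NKX2-5 word TTAAGTG occurred in 1 window of each list (1.92% and 2.44%), both upstream of Tbx20, against 1.72% and 1.76% of all windows. The MEF2 word also occurred in 1 of each (1.92% and 2.44%), both in a Tbx5 intron, against 2.14% and 2.40%. Both words were thus about as frequent as in all windows. The ETS word AGGAAGT, known for endothelial ETS factors, occurred in 2 windows of each list, against 6.96% and 7.55%, with one match in the Tbx18 start in both. None of the 5 words contains another, a match is not a bound site, and a missing match says only that these letters are not in the window.

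Among the other 10 T-box genes, 3 had a start peak in each list. Of all protein-coding genes, 58.8% had one in both lists, and this is the background for the partners and targets below as well. Mga, whose protein also pairs with MAX, ranked 93.2 in GFP- and 88.8 in GFP+, and Eomes, a factor of early mesoderm and lymphocytes, 17.5 and 40.5. At Tbx6, a factor of the paraxial mesoderm, the peak over the start ranked 84.5 and 85.3, but by its summit it was assigned to a neighbouring gene. Tbx4, Tbx10, Tbx19, Tbx21, Tbx22, Tbr1 and T had none in either list. All 7 partners of heart T-box factors had a start peak in both lists, with a median difference of -1.97 points. Gata4 ranked 99.6 and 94.3, Nkx2-5 89.6 and 81.5, and Isl1, a factor of cardiac progenitors, 15.5 and 43.2. Of 7 targets, 5 had a start peak in both lists. Gja5, the gap junction gene of conduction and arterial endothelium, ranked 75.9 in GFP- and was 1.11 points higher in GFP+. Hcn4, the pacemaker channel gene, ranked 81.0 and 73.9. Nppb, a natriuretic peptide gene, ranked 93.3 and 93.1, Gja1, the main gap junction gene of working muscle, 93.4 and 96.8, and Kcnh2, a potassium channel gene, 96.5 and 95.8. Nppa and Bmp10 had no start peak in either list. For the 7 members the median difference was -5.02 points, against -0.814 for genes with a start peak in either list.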

How the data were processed

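ATAC-Seq was done on sorted GFP- and GFP+ heart nuclei, with 2 libraries of each population, mapped to groups from their titles. The authors used fastp to trim reads and bowtie2 to map them to mm10 (version 2.3.5.1 in the submitters' processing notes), filtered alignments with samtools, removed duplicates with Picard and brought the libraries to one depth by downsampling. Genrich, in its ATAC-seq mode, then called the peaks, without mitochondrial or Y chromosome reads and blacklisted regions. Each deposited list gives 3 values for a peak, all written by the authors' caller. The area is a signal added up along the peak, the score is a capped whole number made from area per bp (at the cap in 83.9% of GFP- and 82.0% of GFP+ peaks, and not used here), and the deposited -log10 p-value refers to the summit. Areas are not scaled between lists, so each was turned into a percentile rank within its own list. Depth was evened before calling, but library sizes and single replicates are not analysed here, so the precision of a peak is unknown and no p-value is given.

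Genes and transcript starts came from GENCODE M21 and sequence from GRCm38.p6 (RefSeq). Coordinates are 1-based. A start peak overlaps the 250 bp on either side of a transcript start. Other peaks went to the gene holding the summit or to the nearest protein-coding gene within 100 kb, and were shared with an overlap of at least 1 bp. All 7 genes are named, with their start peaks, their highest-ranked peak of each list outside starts, and every peak of 1 list only with rank 50 or more; further peaks were chosen after their values were seen. The members, the marker, partner, target and family lists and the sequence words were chosen with earlier results of these data known, and 1 further gene of the target list was left out and is not reported here. Alternatives changed the peak threshold, the assignment, the distance limit, the start definition and window, the overlap and the ranking measure; leaving out the predicted gene Gm11444, ranking the starts by other measures and merging their pieces were added after the data were seen. On 1300 simulated peaks, 5 steps were tested: overlap, overlap of 50%, assignment to genes, start peaks and merging into regions. They gave 0 differences from a direct comparison. The word search, base composition, percentiles and background shares were not tested in this way. Python 3.11.15, numpy 2.4.6, pandas 2.3.3, pysam 0.24.0 and matplotlib 3.10.9 were used.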

Additional observations from a re-analysis of the deposited data

How the results depend on the processing

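With peaks at or above the median area of their list alone, the members held 21 GFP- and 14 GFP+ peaks, and with noncoding genes also taking peaks, 32 and 26. When sharing required an overlap of 50% of both peaks, 70.7% of GFP+ and 55.8% of GFP- member peaks were shared. The shares over all protein-coding genes were counted for an overlap of 1 bp alone, so these values have no background beside them. There were 40 alternative values for the counts, shares and median difference. Of these, 35 stayed within 1.5 times the reported count or within the 95% interval of the reported value. The 5 that did not were the peak counts above and the GFP+ share of 70.7%. These bounds are wide, with an interval of -19.8 to -4.59 points for the median difference, and the intervals treat peaks of one gene as independent. The median region difference stayed between -13.5 and -6.27 points. With starts taken from the gene record alone, 6 members had a start peak in GFP- and 5 in GFP+ (Tbx15 lost its peak in both, Tbx1 in GFP+), and above the median area 5 had one in each list (without Tbx1 and Tbx15). The 5 members with a start rank of 50 or more in both lists became 3 when ranked by summit p-value and 2 when ranked by area per bp, and the cause was not tested. No paired analysis was possible because each population has 1 list made from both replicates, and for the same reason no replicate could be left out. The depth behind a peak is unknown, and a place without a peak is one under the caller's threshold in that list, not a closed one.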

Other observations

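Neighbouring genes held further peaks within 100 kb of some members. Of the 22 GFP- and 10 GFP+ peaks in that window around Tbx2, 6 and 4 went to Tbx2 itself. Bcas3 took 12 GFP- peaks, 4 of them shared, and 5 GFP+ peaks, all shared, and the predicted gene Gm11444 took 2 GFP- peaks of rank 79.3 and 93.2 and 1 GFP+ peak of rank 69.7. Tbx4, a hindlimb and lung factor next to Tbx2, took 2 GFP- peaks of rank 11.1 and 12.8 and no GFP+ peak. Around Tbx1, Gnb1l, Gp1bb and Sept5 took 13 of the 18 GFP- peaks. Between Tbx3 and Tbx5, neighbours on chromosome 5, 1 shared peak, ranked 45.0 in GFP- and 36.1 in GFP+, lay within 100 kb of both genes and was assigned to Tbx3.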
